A study of Mus musculus with 8 samples.

Results

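PRDM16-enriched regions were described at the Musashi genes Msi1 and Msi2 in the embryonic mouse cortex. A region belonged to a gene when its summit lay in the annotated gene body, or within 100 kb of the nearer gene end with no closer protein-coding gene. The genes were chosen by their region counts and folds in these same lists, so the values below are a description without a test. The 4 lists joined held 33210 regions, of which 11 belonged to Msi1 and 45 to Msi2. The study mapped PRDM16, a zinc-finger transcription factor of radial glia, by ChIP-seq in whole cortex lysates at E15.5. The cKO embryos (Emx1Ires-Cre; Prdm16flox/flox) carried floxed Prdm16 alleles and Cre from the Emx1 locus, and the embryos labelled WT (Prdm16 flox/flox) carried the floxed alleles with no Cre named. For each genotype there were 2 ChIP libraries, used here, and 2 of input DNA, which were not analysed here. Cre from Emx1 acts in the dorsal telencephalic lineage, so other cells of a whole cortex lysate, such as interneurons and vessel cells, keep an intact Prdm16 gene.

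Musashi proteins bind RNA through a pair of RNA recognition motifs and control the translation of target mRNAs. Msi1 marks neural stem and progenitor cells, where it is known for repressing Numb, an inhibitor of Notch signalling. Msi2 is expressed in neural progenitors as well and is also known from haematopoietic stem cells.

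cKO replicates 1 and 2 held 4553 and 3088 regions over all chromosomes kept, and WT replicates 1 and 2 held 13852 and 26652. Depth was read from the summits. The smallest local background was 2.95 and 2.52 reads in the cKO replicates and 0.777 and 1.78 in the WT replicates. The detection limit, the lowest fold enrichment that reaches the least significant p-value of a list when the background is at its median, was 3.18 and 3.30 in the cKO replicates and 3.53 and 3.01 in the WT replicates. The WT peak names share a library identifier that the cKO names do not, so genotype and any batch it marks cannot be told apart. Peak lists measure no expression, so neither the tissue label nor the loss of Prdm16 was checked by marker genes.

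In RefSeq annotation of GRCm38.p6, the mm10 assembly, Msi1 spans chromosome 5 from 115359059 to 115455698 (96640 bp), over 5 curated and 4 predicted transcripts. Msi2 spans chromosome 11 from 88339382 to 88718306 (378925 bp), over 5 curated and 17 predicted transcripts. These extents join all transcripts of a gene, so a region in the body can lie upstream of the start of a single transcript. With the flanks that the rule adds, 106912 bp were assigned to Msi1 and 457228 bp to Msi2. Msi2 lies on the minus strand, with annotated starts at 88718277, 88718267 and 88718229. No strand was given for Msi1 in the tables used, so its positions are counted from the low-coordinate end. No start of Msi1 was available either, so regions in its annotated body may lie upstream of its commonly used start.

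Windows around annotated starts in these stretches ran from 250 bp before to 50 bp after a start. Those of Msi2, which no region overlaps, and of a long non-coding RNA gene inside it, which a WT region partly overlaps, are shown for contrast. That region ended 150 bp before the start of the non-coding gene, so neither start lay in a region. The first window is chr11:88718228-88718527 on the minus strand, with CACGTG, a form of the E-box that basic helix-loop-helix factors bind, in capitals. Other forms of the E-box were not counted. The second is chr11:88619001-88619300 on the plus strand, with the 101 bases that lie inside a region of WT replicate 2 in capitals. Both are RefSeq sequences of GRCm38.p6.
Msi2: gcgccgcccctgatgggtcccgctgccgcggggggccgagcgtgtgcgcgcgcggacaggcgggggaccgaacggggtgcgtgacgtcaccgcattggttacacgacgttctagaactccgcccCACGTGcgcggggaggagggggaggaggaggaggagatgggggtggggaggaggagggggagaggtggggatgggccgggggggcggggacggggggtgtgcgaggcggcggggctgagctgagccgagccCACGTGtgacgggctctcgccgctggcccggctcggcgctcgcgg
0610039H22Rik: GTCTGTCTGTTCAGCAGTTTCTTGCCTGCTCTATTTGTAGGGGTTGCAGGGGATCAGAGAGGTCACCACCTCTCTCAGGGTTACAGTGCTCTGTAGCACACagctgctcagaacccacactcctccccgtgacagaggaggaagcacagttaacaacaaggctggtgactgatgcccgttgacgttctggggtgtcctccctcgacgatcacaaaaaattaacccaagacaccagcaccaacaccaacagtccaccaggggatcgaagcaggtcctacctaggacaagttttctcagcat
The Msi2 window held CACGTG, which reads the same on both strands, 2 times, against 1 or more times in 7.15% and 2 or more times in 0.594% of 32851 such windows of mouse genes, and the window of 0610039H22Rik held it 0 times. The Msi2 window held 39 CG dinucleotides and the 0610039H22Rik window 6, beside a median of 7 over all windows. CACGTG itself holds a CG, and the windows compared were not matched for CG content. A match to these letters describes the window and is not a binding site.

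No list held a region over the Msi2 start. The nearest regions lay 10082 bp and 10027 bp from the printed window in cKO replicates 1 and 2, both beyond the start. In WT replicates 1 and 2 the nearest lay 15641 bp and 14722 bp away, both inside the gene. At 0610039H22Rik the region of WT replicate 2 overlapped the window and that of WT replicate 1 ended 20 bp before it, while the nearest cKO region was over 100 kb away. This WT region, on chromosome 11 from 88618570 to 88619101, had fold enrichments of 4.62 and 6.62 in WT replicates 1 and 2, and both summits fell on the same base.

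Msi2 carried many PRDM16 regions in WT cortex and almost none in cKO cortex. It had 1 region in each cKO replicate, against 25 and 43 regions in WT replicates 1 and 2 (means 1 ± 0 in cKO and 34 ± 12.7 in WT, SD, n = 2 each). The groups did not overlap. Among 21887 protein-coding genes, 15.7% had more regions in both WT libraries than in either cKO library. At least 1 region was found at 16.4% and 11.8% of genes in cKO replicates 1 and 2, and at 23.6% and 34.5% in WT replicates 1 and 2. In WT replicate 1 only 3 genes, Msi2 among them, had 25 or more regions, and in WT replicate 2 only 2 genes had 43 or more, Msi2 again among them.

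Msi1 carried fewer regions, and cKO replicate 1 kept several of them. It had 4 and 0 regions in cKO replicates 1 and 2, against 6 and 8 in WT replicates 1 and 2 (means 2 ± 2.83 in cKO and 7 ± 1.41 in WT, SD, n = 2 each). The groups did not overlap, as at 15.7% of protein-coding genes, but cKO replicate 1 lay closer to WT replicate 1 than to cKO replicate 2. When every list was cut to its 3088 most significant regions, Msi1 kept 2 and 0 regions in cKO replicates 1 and 2 and 0 in either WT replicate. The higher WT count of Msi1 therefore ended at equal list length. Msi2 kept 1 and 1 regions in the cKO replicates against 7 and 8 in the WT replicates, so its direction stayed.

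Gene length differs between the genes, so densities were compared per 100 kb of assigned sequence. In cKO replicates 1 and 2 the density was 3.74 and 0 regions per 100 kb at Msi1 and 0.219 and 0.219 at Msi2. In WT replicates 1 and 2 it was 5.61 and 7.48 at Msi1 and 5.47 and 9.40 at Msi2. Over all sequence assigned to protein-coding genes it was 0.226 and 0.152 in the cKO replicates and 0.590 and 1.15 in the WT replicates. Per length, both Musashi genes thus lay above the level over all genes in both WT libraries. The order of Msi1 and Msi2 differed between the WT replicates. The sequence over all genes was not matched to the Musashi genes for the part that is gene body. In the cKO libraries Msi2 was near the level over all genes, and Msi1 was above it in replicate 1 only.

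**Figure D1:**
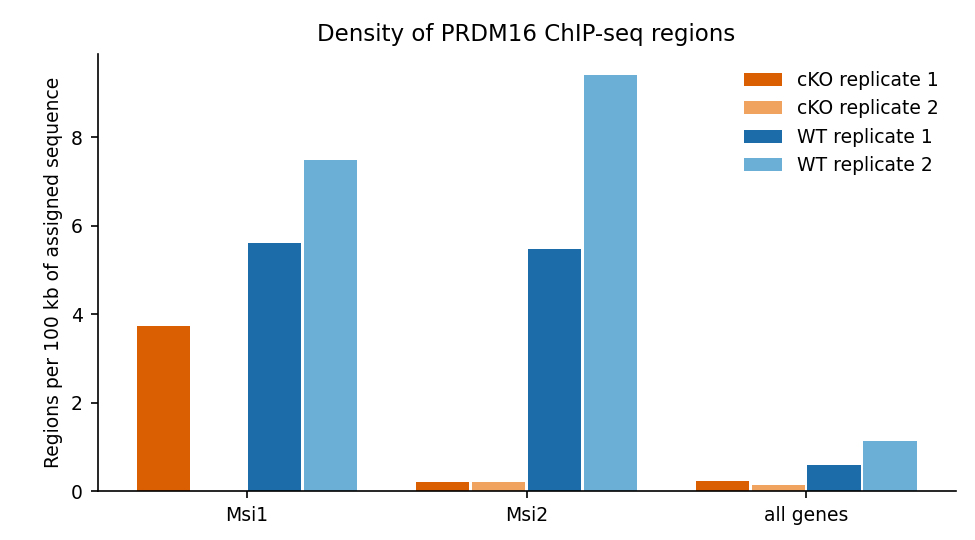
Regions per 100 kb of assigned sequence (y axis) at Msi1, at Msi2 and over all protein-coding genes, with 1 bar per library and no error bars. The WT bars of Msi1 and Msi2 reach 5.47 to 9.40, above 0.590 and 1.15 over all genes, and cKO replicate 1 reaches 3.74 at Msi1.

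Regions at Msi2 reproduced between the WT libraries. Joined across lists, 22 Msi2 regions were in both WT lists, 2 in WT replicate 1 alone and 20 in WT replicate 2 alone. Thus 22 of the 24 joined regions of WT replicate 1 were also in WT replicate 2, and 22 of the 42 of WT replicate 2 were in replicate 1. Over all chromosomes kept, 10090 joined regions were in both WT lists, beside 13852 regions in WT replicate 1 and 26652 in WT replicate 2. Overlap between the WT lists was thus common over all regions too. The replicate summits of a shared region lay a median of 57.5 bp apart and at most 432 bp. The shared regions were stronger in WT replicate 2, with a median fold of 8.99, than the regions of that list alone, with 4.53. At Msi1, 4 regions were in both WT lists, 2 in WT replicate 1 alone and 4 in WT replicate 2 alone, with shared summits a median of 124.5 bp apart.

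None of the 22 shared Msi2 regions overlapped a region of either cKO list, so all 22 were WT-only regions, found in both WT lists and in neither cKO list. At Msi1, 2 of the 4 shared regions overlapped a region of cKO replicate 1 and 2 were WT-only. Over all genes, 8.5% of the 10090 regions of both WT lists overlapped a cKO region, and 7.06% overlapped one of cKO replicate 1. A WT-only region was found at 16.6% of protein-coding genes, and 2 or more at 7.17%. Only 3 genes, Msi2 among them, had 22 or more, and the most at any gene was 31. All 22 Msi2 regions, and both of Msi1, had WT folds above the detection limit of either cKO library. Most regions of both WT lists would pass this, because the 5th percentile of fold, 4.22 and 3.58 in WT replicates 1 and 2, was above both cKO limits. The count is therefore no trait of the Musashi genes. If the smaller of the WT folds is divided by 2, 14 of the 22 at Msi2 and 0 of the 2 at Msi1 are still above both limits. The share over all 10090 regions is not given here. At the remaining regions a signal of that lower size would have been under the limit of at least 1 cKO library.

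**Figure D2:**
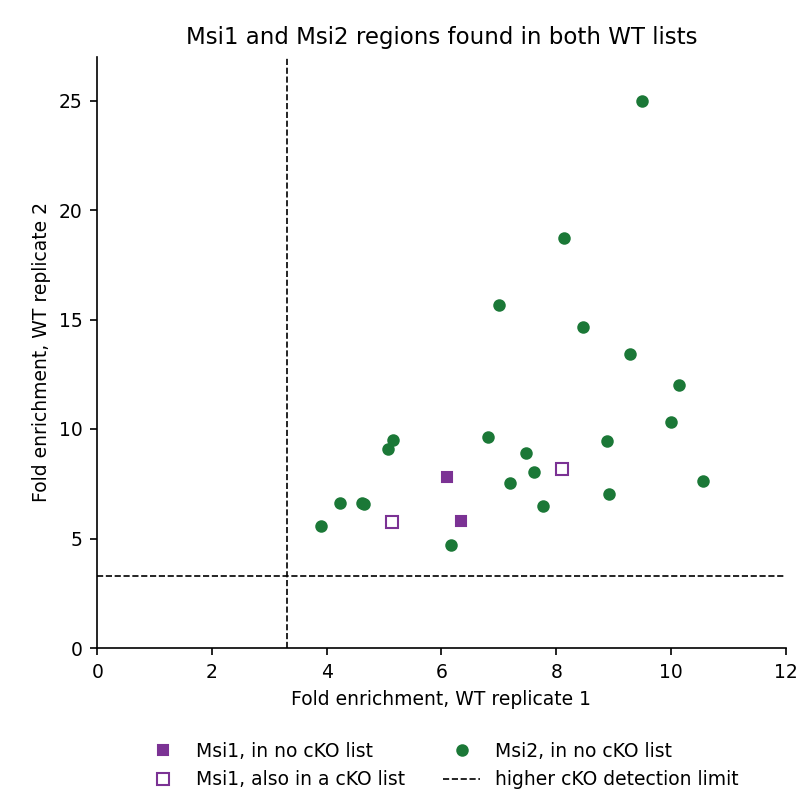
Fold enrichment in WT replicate 1 (x axis) and WT replicate 2 (y axis) of the 4 Msi1 and 22 Msi2 regions found in both WT lists, 1 point per region. All points lie above the higher cKO detection limit of 3.30 on both axes, and open squares mark the 2 Msi1 regions that were also in cKO replicate 1.

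The strongest Msi2 region by mean WT fold lay in the gene body 73.4 kb downstream of the start, on chromosome 11 from 88644523 to 88645658. It was in no cKO list and had a fold enrichment of 9.50 in WT replicate 1 and 25.0 in WT replicate 2 (17.2 ± 10.9, SD, n = 2), from 28 and 82 reads at the summit over backgrounds of 2.05 and 2.32. The replicates differed widely here, and WT replicate 2 carried the higher fold. Among all 10090 regions of both WT lists this one ranked 674. The next lay 274 kb downstream of the start, from 88443130 to 88444430, with 8.14 and 18.7 in WT replicates 1 and 2 (13.4 ± 7.49). A region near the far end of the gene, from 88356192 to 88357462, had 8.47 and 14.6 (11.6 ± 4.37), and its WT summits lay 2 bp apart.

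The highest Msi2 fold in WT replicate 1 was at another site, from 88585028 to 88585584, with 10.6 in WT replicate 1 and 7.64 in WT replicate 2. It stood in the densest group of regions, where 8 regions, 4 of them in both WT lists, followed each other over 11867 bp from 88582438 to 88594304 with less than 5 kb between neighbours. The strongest of these by mean fold, from 88582928 to 88583695, had 10.1 and 12.01 in WT replicates 1 and 2 (11.1 ± 1.33). Beside the long non-coding RNA gene 0610039H22Rik, a region from 88620073 to 88620970, inside that gene, had 10.01 and 10.3 (10.2 ± 0.230). Folds of the 22 shared regions averaged over WT replicates had a median of 8.08 and a minimum of 4.74, beside a median of 7.46 over all 10090.

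All 22 shared Msi2 regions lay in the gene body, spread along most of its length. Counted downstream from the start, 6 lay within the first 100 kb, 7 between 100 and 200 kb, 6 between 200 and 300 kb and 3 beyond 300 kb. The closest to the start lay 15.8 kb inside the gene, from 88702332 to 88702846, with 5.07 and 9.09 in WT replicates 1 and 2. The longest stretch of the body between shared regions followed it, 51477 bp from 88650855 to 88702331. Their widths were 315 to 1429 bp, with a median of 780 bp. Outside the body the WT lists held 4 regions, each in a single list, with folds of 4.31 to 6.19.

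**Figure D3:**
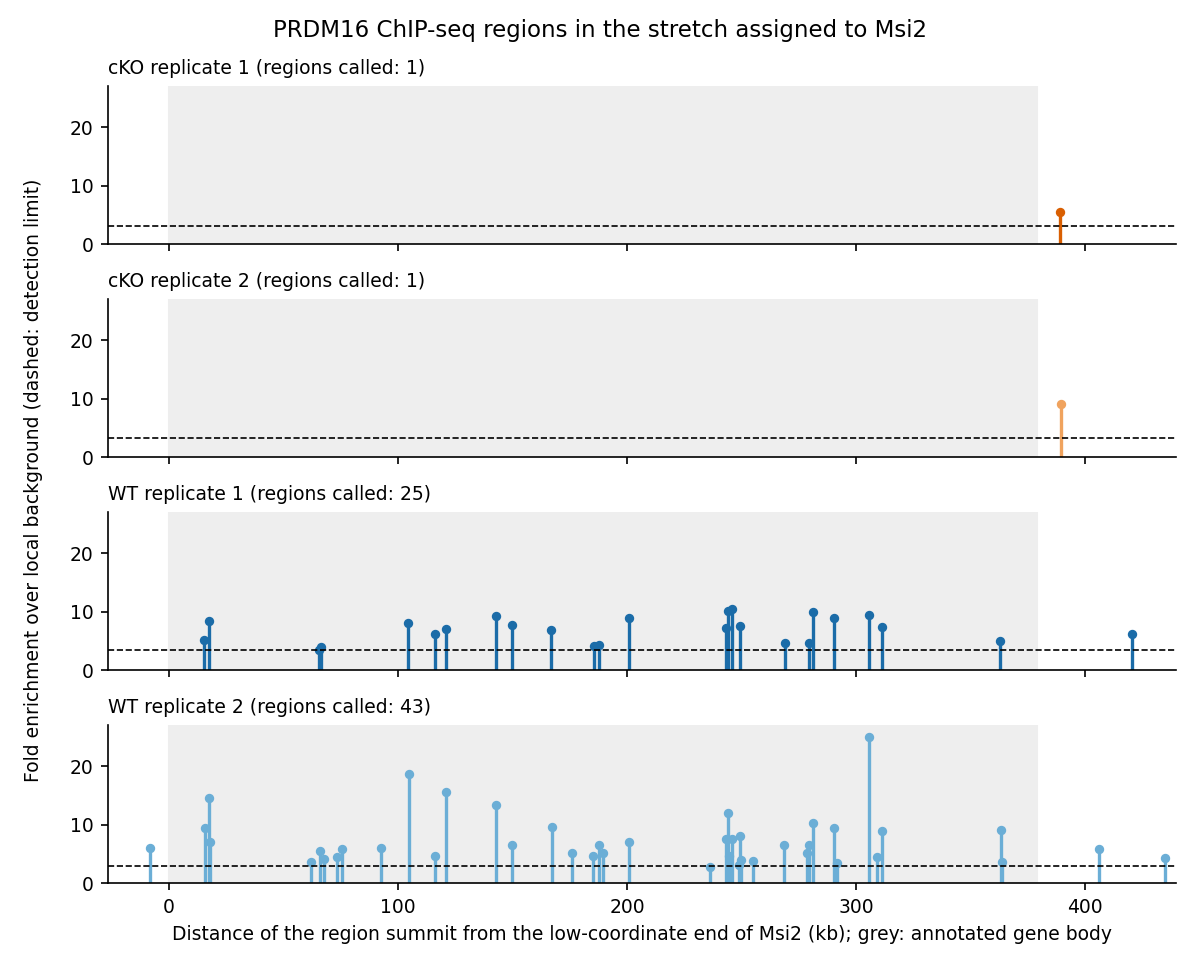
Fold enrichment (y axis) of each region in the stretch assigned to Msi2, by distance of its summit from the low-coordinate end of the gene in kb (x axis), with 1 panel per library and the detection limit dashed. The start of Msi2 is at the right edge of the grey gene body. The cKO panels hold 1 region each, outside the body, against 25 and 43 in the WT panels.

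The single Msi2 region of each cKO list was at the same place and was in neither WT list. Its summit lay upstream of Msi2, 10386 bp from the end of the annotated body, on chromosome 11 from 88728554 to 88728803. The fold enrichment was 5.58 in cKO replicate 1 and 9.11 in cKO replicate 2 (7.35 ± 2.50, SD, n = 2), from 28 and 42 reads over backgrounds of 4.20 and 3.72, with −log10 q of 10.3 and 24.8. Both folds were above the WT detection limits of 3.53 and 3.01, and cKO replicate 2 had the higher one. That summit lay 120 bp beyond the high-coordinate end of C030037D09Rik, a long non-coding RNA gene on the plus strand that starts beside Msi2 and is transcribed away from it. Such a region, shared by the cKO lists and absent from the WT lists, was found at 3.43% of protein-coding genes.

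At Msi1 the strongest region of both WT lists lay in the annotated extent of all transcripts, 39.4 kb from the low-coordinate end. This region ran on chromosome 5 from 115397965 to 115399043. Its fold was 3.29 in cKO replicate 1 and it was not called in cKO replicate 2, against 8.10 and 8.18 in WT replicates 1 and 2 (8.14 ± 0.0545, SD, n = 2). The WT folds were close together, and the cKO fold was just above that list's limit of 3.18. It ranked 4243 of 10090 among regions of both WT lists. The other shared region also called in a cKO list lay from 115436406 to 115436893, with 3.81 in cKO replicate 1 against 5.14 and 5.73 in WT replicates 1 and 2 (5.44 ± 0.420).

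Another site, on chromosome 5 from 115431490 to 115432051, was the strongest Msi1 region in 2 of the lists. Its fold was 5.14 in cKO replicate 1, from 20 reads over a background of 3.09, and 8.36 in WT replicate 2, from 31 reads over 2.83. It was not called in cKO replicate 2 or in WT replicate 1. Of the 10 Msi1 regions in any WT list, 3 were thus also called in cKO replicate 1 and 0 in cKO replicate 2, whereas of the 44 Msi2 regions in any WT list 0 were called in either. Over all genes the share is given only for regions of both WT lists, a narrower set, of which 8.5% overlapped a cKO region. Overlap with a cKO list was thus uncommon in that set as well. The remaining cKO region of Msi1, from 115358925 to 115359096, was in no WT list and lay 34 bp outside the low-coordinate end, with a fold of 4.49 in cKO replicate 1, inside the long non-coding RNA gene 4930401G09Rik.

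The WT-only regions of Msi1 were modest. One, from 115373756 to 115374555, had 6.33 and 5.80 in WT replicates 1 and 2 (6.07 ± 0.373), and the other, from 115404106 to 115404621, had 6.10 and 7.82 (6.96 ± 1.22). The second was followed within 1601 bp in all by 2 weaker regions of WT replicate 2 alone, with 4.47 and 5.004. Between 70.4 and 78.3 kb from the low-coordinate end, 5 regions of any list lay within 8011 bp, of which 1 was in both WT lists. Among them a region of WT replicate 1 alone, with a fold of 5.14, had its summit 2 bp beyond the high-coordinate end of A930005G22Rik, another long non-coding RNA gene inside the extent of Msi1.

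**Figure D4:**
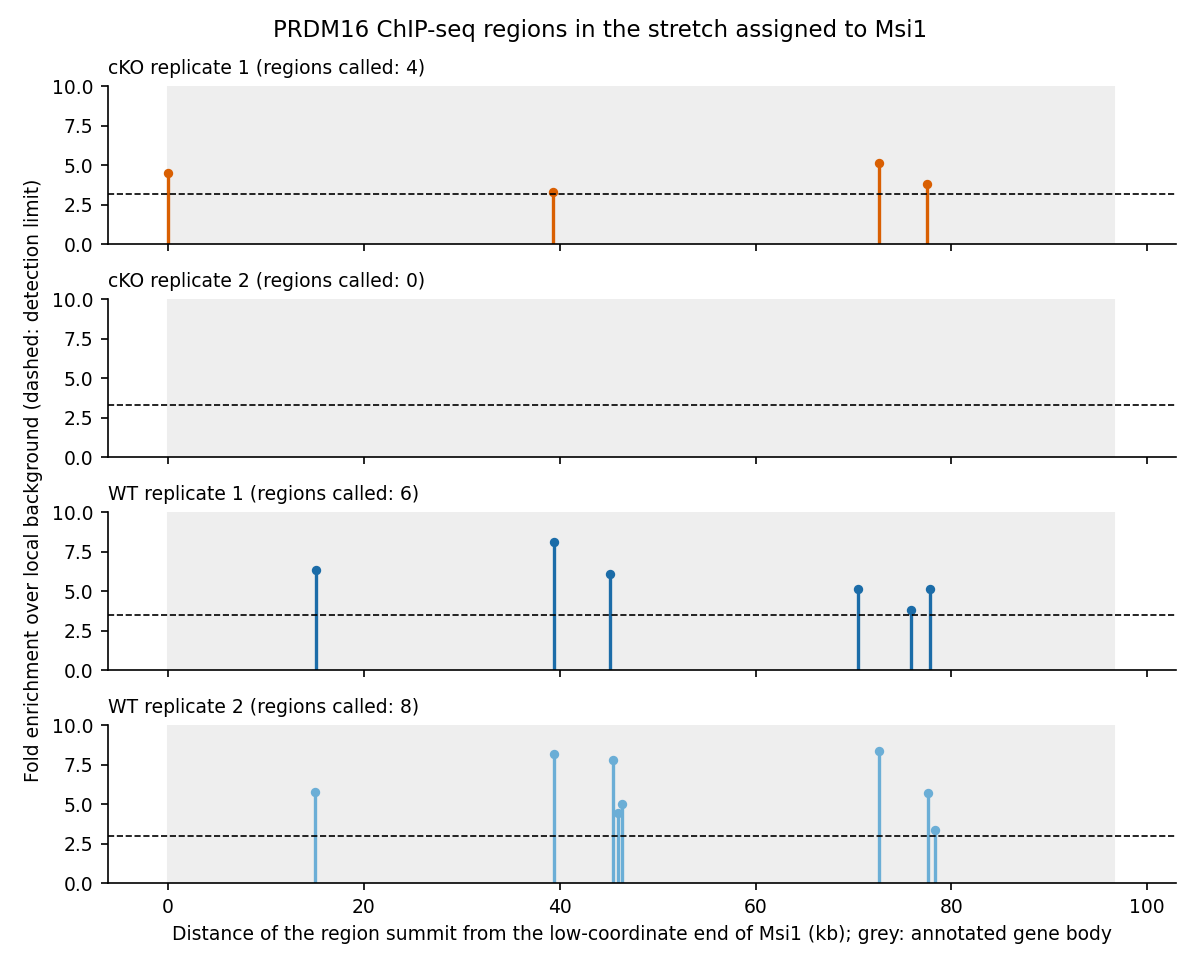
Fold enrichment (y axis) of each region in the stretch assigned to Msi1, by distance of its summit from the low-coordinate end of the gene in kb (x axis), with 1 panel per library and the detection limit dashed. cKO replicate 1 holds 4 regions with folds of 3.29 to 5.14, cKO replicate 2 holds 0, and the WT replicates hold 6 and 8 with folds of 3.39 to 8.36.

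The difference at Msi2 held as the significance demanded of a region rose. At −log10 q of 5 or more, Msi2 had 1 and 1 regions in cKO replicates 1 and 2 against 17 and 32 in WT replicates 1 and 2, and Msi1 had 2 and 0 against 3 and 7. At 10 or more, Msi2 had 1 and 1 against 9 and 20, and Msi1 had 0 and 0 against 1 and 3. At 20 or more, Msi2 had 0 and 1 against 0 and 9, so that WT replicate 1, the WT list with the lowest background, no longer stood apart from the cKO lists.

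**Figure D5:**
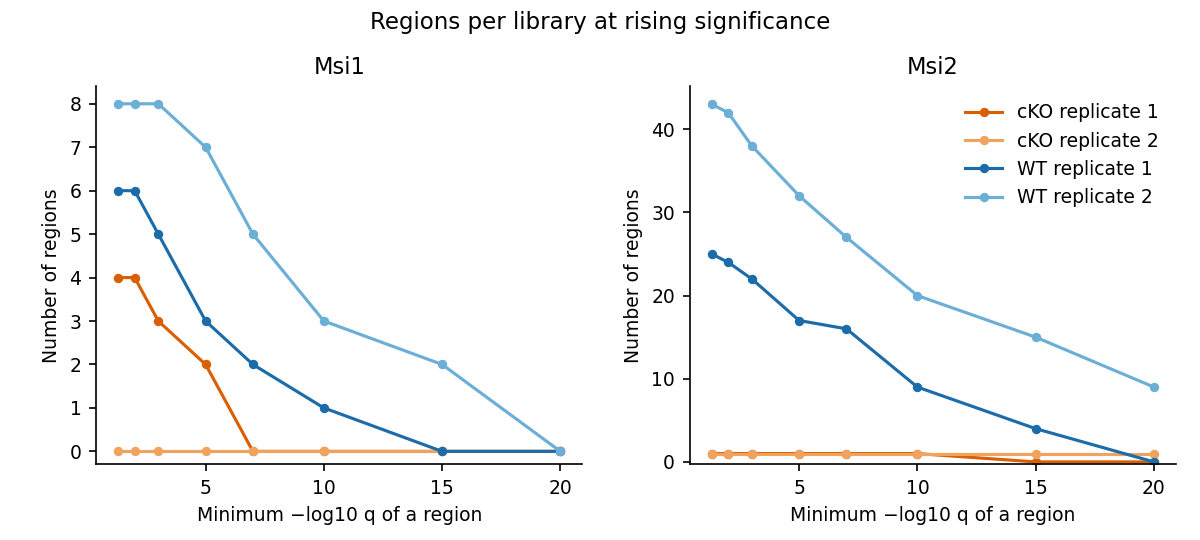
Number of regions (y axis) at Msi1 (left) and Msi2 (right) with at least the −log10 q given on the x axis, 1 line per library. At Msi2 the cKO lines stay at 0 or 1, while WT replicate 1 falls to 0 and WT replicate 2 to 9 at the right end.

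Genes of related function were read beside the Musashi genes as counts. Of 41 genes of neural RNA-binding proteins, 16 and 12 had a region in cKO replicates 1 and 2 and 23 and 31 in WT replicates 1 and 2. A WT-only region was found at 18 of them (43.9%). Over all genes these shares were 16.4% and 11.8% in cKO, 23.6% and 34.5% in WT and 16.6% for a WT-only region. The median body of the list, 109698 bp, was longer than the 17169 bp over all genes, and the part of length in these counts was not tested. The examples with the strongest regions were the splicing and mRNA stability regulator Celf2 with 24.9 ± 3.499 in its body, the splicing regulator Nova1 with 17.2 ± 0.118 at 62430 bp outside the gene, and Rbms1 and Rbms3 with 17.2 ± 4.06 and 15.2 ± 4.75 in their bodies (mean WT fold ± SD, n = 2). The median number of WT-only regions was 0 in this list, as over all genes.

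The RNA-binding relatives of Musashi were read in the same way. Of 9 genes, which encode proteins of the hnRNP A and D families, Dazap1 and Tardbp, 2 and 2 had a region in cKO replicates 1 and 2, 0 and 1 had one in WT replicates 1 and 2, and 0 had a WT-only region. Over all genes these shares were 16.4% and 11.8% in cKO, 23.6% and 34.5% in WT and 16.6% for a WT-only region. The median body of these genes was 9615 bp. Dazap1 had 1 region in each cKO list and 0 in each WT list, and Tardbp had 1 region in WT replicate 2 alone.

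Of 5 genes whose mRNAs are known Musashi targets, 3 and 2 had a region in cKO replicates 1 and 2, against 4 and 3 in WT replicates 1 and 2, and 2 (40%) had a WT-only region. Over all genes a region was found at 16.4% and 11.8% in cKO and 23.6% and 34.5% in WT, and a WT-only region at 16.6%. The median body of the list was 68584 bp, against 17169 bp over all genes, and the part of length was not tested. The 2 genes with a WT-only region were Robo3, an axon guidance receptor gene, with 11.7 ± 2.74 at 21059 bp outside the gene, and Dcx, which encodes the microtubule protein doublecortin of migrating neurons, with 11.7 ± 0.813 in its body (mean WT fold ± SD, n = 2). Numb had 0 regions in all 4 lists. Cdkn1a, a cell cycle inhibitor gene, had 1 and 1 regions in cKO replicates 1 and 2 against 1 and 0 in WT replicates 1 and 2.

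Of 11 genes that regulate or mark radial glia, Numb among them again, 3 and 2 had a region in cKO replicates 1 and 2, against 7 and 8 in WT replicates 1 and 2, and 7 (63.6%) had a WT-only region. The shares over all genes were 16.4% and 11.8% in cKO, 23.6% and 34.5% in WT and 16.6% for a WT-only region, and the median body of the list was 11255 bp. The strongest were at Notch1, a Notch receptor gene, with 26.8 ± 0.794, Fabp7, a fatty acid binding protein gene of radial glia, with 21.9 ± 2.86 at 119 bp outside the gene, the transcription factor gene Pax6 with 17.9 ± 0.414 and Sox2 with 14.8 ± 2.15 at 90862 bp outside the gene (mean WT fold ± SD, n = 2). Numbl and Prom1 had 0 regions in all lists.

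Among the genes whose region counts over the 4 libraries were most like those of Msi2, by Euclidean distance of log2(1 + regions), were the teneurin adhesion genes Tenm4 (distance 0.740) and Tenm3 (0.857), the transcription factor gene Sox5 (0.884) and Dab1, an adaptor gene of reelin signalling (0.964). Tenm4 had 1 and 2 regions in cKO replicates 1 and 2 against 18 and 42 in WT replicates 1 and 2, with 14 WT-only regions. Those 4 genes had 11 to 15 WT-only regions each, against 22 at Msi2. The genes most like Msi1 were Itprid1 (distance 0.427), Frmd4b (0.737), the homeobox gene Emx2 (0.752), the microtubule protein gene Map2 (0.770) and Irf2bpl (0.785). Itprid1 had 3 and 0 regions in the cKO replicates against 5 and 7 in the WT replicates. Each of these 5 genes had 0 regions in cKO replicate 2, but they were chosen by these same counts. Over all genes, 11.8% had a region in that list, so 0 was the usual count.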

How the data were processed

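PRDM16 ChIP-seq peak lists of 2 cKO and 2 WT cortex libraries at E15.5 were used. Per the submitters' processing notes, the tools were MACS2 2.1.1, Bowtie2 2.2.8, cutadapt and FastQC on mm10, without their settings or order. The authors deposited 1 list per library, so replicates were not pooled at peak calling. Its fold enrichment is a ratio over local background in the deposited lists, and all folds in the text are the authors' values. The authors' columns of significance hold the −log10 p-value and the −log10 q-value, and the score column of the deposited lists, 10 times −log10 q, was not used further. The input used as control is not given in these sources.

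Regions on unplaced contigs were left out, and regions overlapping by at least 1 bp were joined across lists. Read pileup and background were solved from fold and p-value under the Poisson model of MACS2, with the pileup held to whole numbers. The recomputed −log10 p lay within 0.0001 of the authors' value for 99.8% or more of summits with a finite value in each library. The lists hold no read totals. Genes and promoter windows came from RefSeq tables of GRCm38.p6, and 1 of the 2 Musashi genes, Msi2, had promoter entries. No genome sequence was used, so the sequences of the regions are not shown. Genes were named by rule: Msi1 and Msi2, the neighbouring genes, up to 4 examples of each of the 4 gene lists by highest mean fold of a WT-only region, and the 5 genes most alike, of which some results are not reported here. Further list members named for having few or no regions, and non-coding genes beside regions, were chosen after their values were seen. The members and lists were chosen with earlier results of these data known, so no test was made. Replicates are separate samples in the labels, which do not say whether each came from 1 embryo or several. Counting steps were tested on simulated data. Python 3.11.15, pandas 2.3.3, NumPy 2.4.6 and SciPy 1.17.1 were used. Alternatives were a stricter q-value, lists of equal length, a shorter window, a larger overlap, peak lines in place of joined regions, ranking by p-value, and leaving out each library.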

Additional observations from a re-analysis of the deposited data

How the results depend on the processing

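The counts at Msi2 kept their direction in each alternative run, and those at Msi1 did not. With lists of equal length (3088 regions), regions per library were 1 in cKO against 0 in WT at Msi1, and the WT mean at Msi2 was 7.5; WT-only regions were 0 at Msi1 and 6 at Msi2, and 4.99% of genes had one. With −log10 q of at least 5, Msi1 averaged 1 region per cKO library, and 13.6% of genes had a WT-only region. With a window of 10 kb, Msi2 had 0 regions per cKO library, its cKO region lying just over 10 kb away, and 12.7% of genes had a WT-only region. Leaving out 1 cKO library gave 0 regions per cKO library at Msi1 without replicate 1 and 4 without replicate 2. Leaving out each library in turn gave 2 to 5 WT-only regions at Msi1 (4 without cKO replicate 1, 5 without WT replicate 1 and 4 without WT replicate 2), 22 to 43 at Msi2 (43 without WT replicate 1) and a share of genes of 16.8% to 32.2% (21.3% without WT replicate 2). The highest Msi1 fold was 8.10 to 8.36 when either WT library was left out, the 8.36 being at another region. The highest Msi2 fold, a mean of 17.2 over both WT libraries, was 25.0 without WT replicate 1 and 10.6, at another region, without WT replicate 2. With equal lists, every list except that of cKO replicate 2 held fewer regions. The cause of these and the other changes was not tested. In all, 43 recomputed values stayed within their bounds and 19 moved. The bounds were a ratio of 1.5 for counts and the SD over the WT libraries for folds. For the share of genes they were a 95% binomial interval of 16.1% to 17.1%, which treats genes as independent and measures no spread between libraries. No paired analysis was possible because these results come from no test over samples. Low read numbers at the summits, 8 to 28 in WT replicate 1 at Msi2, limit the precision of its folds.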

Other observations

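The protein-coding genes on either side of the Musashi genes were read in the same way. Ccdc182, a short gene on the far side of the 44120 bp below the low-coordinate end of Msi2, had 0 and 0 regions in cKO replicates 1 and 2 against 4 and 6 in WT replicates 1 and 2, with 4 WT-only regions and a highest fold of 14.7 in WT replicate 1 and 11.0 in WT replicate 2. Akap1, which encodes an anchoring protein of the mitochondrial surface, lies beyond the other end of Msi2 and had 0 regions in both cKO replicates against 0 and 2 in the WT replicates. Cox6a1, a cytochrome oxidase subunit gene, and the phospholipase gene Pla2g1b, which flank Msi1, had 0 regions in all 4 lists.

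The assignment rule put some regions near its edge. A region of WT replicate 2 with a fold of 4.31 lay 56085 bp from Msi2 and 56401 bp from Akap1, just inside. A region of the same list with a fold of 4.90 lay 29704 bp from Msi2 and 14417 bp from Ccdc182, and was left to Ccdc182. Next to Msi1, a region of both WT lists with folds of 4.96 and 5.52 in WT replicates 1 and 2 lay 34221 bp from Msi1 and was assigned to Sirt4.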
